A study of Homo sapiens with 6 samples.

Results

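The genes described here are the ligands and receptors of axon guidance: ephrins and Eph receptors, semaphorins with their neuropilin and plexin receptors, SLIT proteins and ROBO receptors, and netrins with the UNC5 receptors. They were chosen by gene symbol alone, and 66 of the 18417 genes tested belonged to these families. The 66 were 8 ephrins, 13 Eph receptors, 7 class 3 semaphorins, 12 membrane semaphorins, 2 neuropilins, 9 plexins, 3 SLIT genes, 4 ROBO genes, 4 netrins and 4 UNC5 receptors. EPHB2 and SEMA4C were not analysed here.

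RNA came from WA09, a human embryonic stem cell line, and from cells derived from that line, so all groups share 1 genetic background. The 3 groups were undifferentiated stem cells kept in StemPro defined medium (hESC), ISL1-positive nascent mesoderm at day 4 (INM) and smooth muscle cells at day 21 (SMC), with 2 Affymetrix arrays in each. Both derivatives were made by adding 25 ng/ml Wnt3a and 50 ng/ml BMP4 to the defined medium, and the labels name neither factor for the stem cells. The labels do not say that the 2 arrays of a group came from separate cultures, so the p-values measure only how far these arrays differed, and that spread may be technical.

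Axon guidance proteins were named for steering growing nerve fibres, but the same proteins position cells in the mesoderm, the heart and the vessel wall. Ephrins stay on the cell surface and signal to Eph receptor tyrosine kinases on the neighbouring cell, and signals also run backwards into the ephrin-bearing cell. Semaphorins signal through plexins, and most secreted class 3 members need a neuropilin as co-receptor. SLIT proteins are secreted repellents that bind ROBO receptors, and netrins attract cells through DCC and neogenin and repel them through UNC5 receptors.

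The deposited values are log2 signals, and every change is a difference of group means on that scale with its standard error (SE). A gene was called at a Benjamini-Hochberg adjusted p under 0.05 in limma, adjusted over the 18417 genes. The SE of each gene rests on a variance estimate shared by all 3 groups. Within groups, the pooled standard deviation of the guidance genes was 0.12 (hESC), 0.097 (SMC) and 0.537 (INM). SEs of SMC versus hESC therefore carry the spread of INM arrays outside that comparison, and may be too large. Those of comparisons with INM draw on the quieter groups, and may be too small. The array gives no detection measure here, so a mean under 5.04, the lowest array median of probe sets without a gene name, is not shown to lie above background. By that limit EPHA6 was low in all 3 groups, EPHA5 in hESC and INM, and SEMA3E in hESC and SMC. EPHA3 stood at the limit in hESC and INM. The same median was higher on other arrays, at 5.62 and 5.65 in hESC and 5.34 and 5.31 in SMC. The hESC means of EPHA3 (5.04), UNC5C (5.14), SEMA3B (5.49) and PLXNA2 (5.57) also lay under both hESC values. Their differences from hESC may therefore be lower bounds. Levels of different genes are not set against each other, because probe sets differ in response. In bulk RNA, fewer cells of a type and less RNA per cell cannot be told apart.

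The labels were checked against marker genes. The pluripotency factor SOX2 read 11.44 and 11.47 in hESC, 5.63 and 5.81 in INM, then 5.76 and 5.61 in SMC. Of the 9 pluripotency markers 5 were called lower in INM versus hESC and 4 were not, namely LIN28A at 10.39 and 11.76, LIN28B at 9.27 and 9.97, SALL4 at 9.74 and 10.23, and ZFP42 at 9.99 and 9.44 in INM. ISL1 read 5.54 and 5.28 in hESC, 9.46 and 9.55 in INM, then 6.41 and 6.31 in SMC. ACTA2, smooth muscle alpha-actin, read 6.44 and 6.41 in hESC, 11.97 and 10.85 in INM, then 13.09 and 13.03 in SMC. MYH11, the myosin heavy chain of mature smooth muscle, had no call in any comparison and read 5.59 and 5.43 in SMC. The INM arrays stood apart from each other: 3.80% of all genes differed by more than 1 between them, against 0.0869% for the hESC pair and 0.0597% for the SMC pair. Of the 66 guidance genes, 11 differed by more than 1 between the INM arrays, or 16.7%, and 0 did so in either other group.

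Guidance receptors and ligands moved in both directions at each step. In INM versus hESC 22 of 66 genes were called higher, or 33.3%, where 18.9% of all genes were. In the same comparison 9 were called lower, or 13.6%, where 14.8% of all genes were. In SMC versus INM 8 were called higher (12.1%, where 9.94% of all genes were) and 16 lower (24.2%, where 11.1% of all genes were). In SMC versus hESC 19 were called higher (28.8%, where 19.7% of all genes were) and 13 lower (19.7%, where 17.6% of all genes were). The median absolute change was 0.52, 0.36 and 0.59 in these comparisons, beside 0.32, 0.24 and 0.33 over all genes. By the moderated F test 37 of 66 genes, or 56.1%, differed between any of the groups, where 45.5% of all genes did. No call was made in any of the 3 comparisons for 28 of the 66. The 3 comparisons share arrays, so their counts are not independent of each other.

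**Figure D1:**
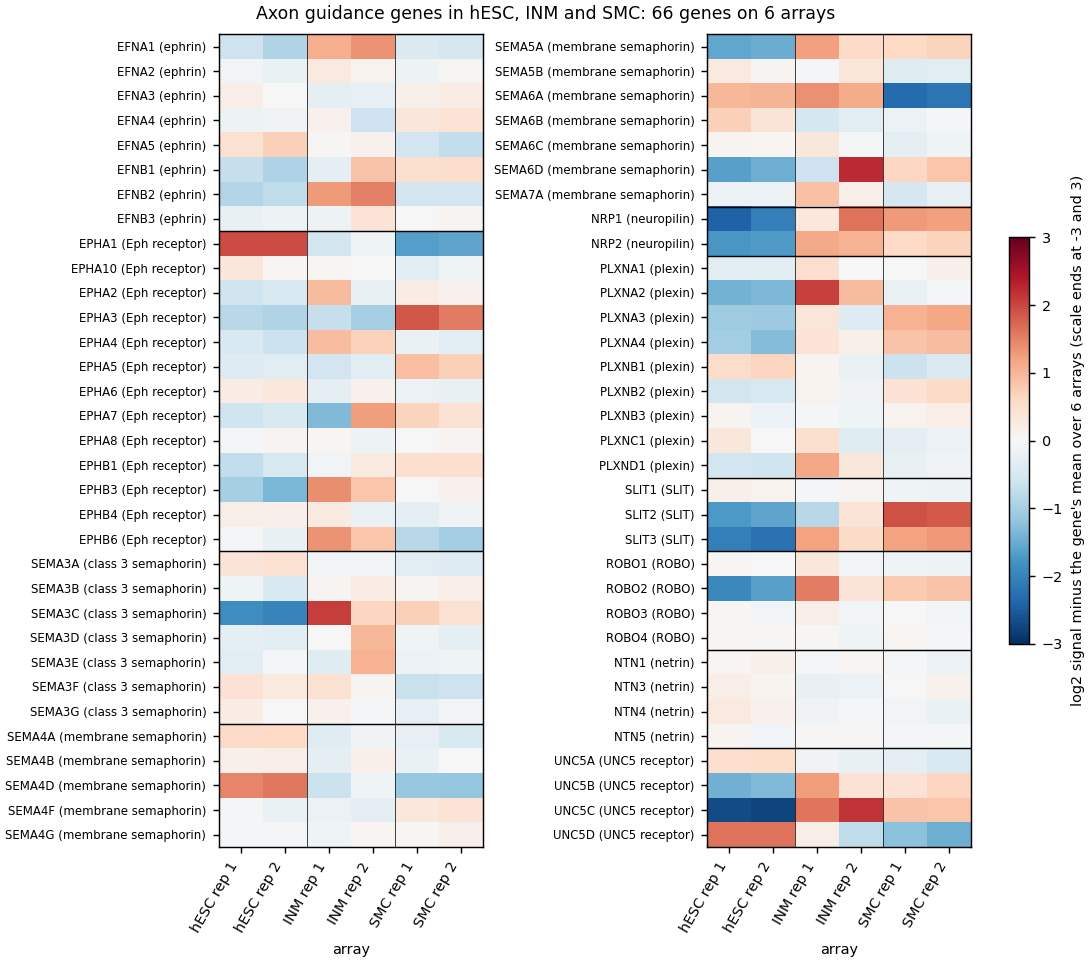
Each row is a gene and each column an array, and the colour is the gene's log2 signal minus its mean over the 6 arrays, with lines between families and groups. NRP1, NRP2, SLIT3 and UNC5C turn from blue in hESC to red in INM and SMC, EPHA1, SEMA4D and UNC5D turn the other way, and the netrin and ROBO4 rows stay pale.

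Of the 32 receptors, 14 were called higher (43.8%) and 4 lower (12.5%) in INM versus hESC, with a median change of 0.50. Of the 34 ligands, 8 were called higher (23.5%) and 5 lower (14.7%), with a median change of 0.02. Over all genes 18.9% were called higher and 14.8% lower there, with a median of -0.03. In SMC versus hESC 13 receptors were higher (40.6%) and 5 lower (15.6%), at a median of 0.41. There 6 ligands were higher (17.6%) and 8 lower (23.5%), at a median of -0.01, where 19.7% and 17.6% of all genes were. The difference between ligands and receptors was not tested. The counts by family below are to be read beside these shares, and beside 9.94% higher and 11.1% lower in SMC versus INM.

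The upstream windows of 5 genes are printed because these genes carry the main time courses. EFNA1 and EFNB2 are ephrins high on the INM arrays alone, UNC5C is the receptor with the largest rise in INM, EPHA3 rose between INM and SMC, and EPHA1 fell at both steps. Each window holds the 250 bases before the gene's annotated start, 5′ to 3′ on the gene's strand, from RefSeq on GRCh38.p14. Capitals mark matches, on either strand, to 4 short motifs. Wnt signals act through TCF and LEF factors, whose core was searched as CTTTGA. BMP signals act through SMAD factors, whose GC-rich core was searched as GGCGCC. The common promoter element called the GC box was searched as GGGCGG. The TATA box, which sets the start of some genes, was searched as TATAAA.
EFNA1: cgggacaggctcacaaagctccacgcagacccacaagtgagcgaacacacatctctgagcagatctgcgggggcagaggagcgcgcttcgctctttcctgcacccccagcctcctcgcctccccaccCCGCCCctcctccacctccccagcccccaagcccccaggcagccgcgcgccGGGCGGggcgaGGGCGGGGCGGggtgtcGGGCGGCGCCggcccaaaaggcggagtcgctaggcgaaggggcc
EFNB2: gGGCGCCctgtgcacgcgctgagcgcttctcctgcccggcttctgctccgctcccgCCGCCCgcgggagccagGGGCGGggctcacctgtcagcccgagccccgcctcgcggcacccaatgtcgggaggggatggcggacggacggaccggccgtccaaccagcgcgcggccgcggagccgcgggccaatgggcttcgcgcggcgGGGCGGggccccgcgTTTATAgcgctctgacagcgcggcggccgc
EPHA3: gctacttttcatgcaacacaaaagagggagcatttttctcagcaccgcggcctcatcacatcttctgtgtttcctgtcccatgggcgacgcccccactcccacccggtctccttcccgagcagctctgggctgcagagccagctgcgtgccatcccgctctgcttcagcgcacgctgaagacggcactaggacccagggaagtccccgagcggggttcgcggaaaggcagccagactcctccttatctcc
UNC5C: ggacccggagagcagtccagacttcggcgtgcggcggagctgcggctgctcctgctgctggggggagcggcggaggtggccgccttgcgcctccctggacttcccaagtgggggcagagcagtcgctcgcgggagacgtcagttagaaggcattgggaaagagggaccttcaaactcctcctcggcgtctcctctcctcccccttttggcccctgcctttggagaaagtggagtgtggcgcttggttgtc
EPHA1: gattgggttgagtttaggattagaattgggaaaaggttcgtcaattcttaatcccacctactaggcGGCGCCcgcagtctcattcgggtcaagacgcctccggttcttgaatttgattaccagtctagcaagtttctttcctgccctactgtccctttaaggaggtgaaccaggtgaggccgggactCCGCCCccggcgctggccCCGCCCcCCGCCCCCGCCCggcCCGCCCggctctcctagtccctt
The EFNB2 window lies on the minus strand at chr13:106535663-106535912 and holds 3 GC boxes, 1 GC-rich SMAD core and 1 match to the TATA box string. That match lies on the strand opposite to the gene and is printed as TTTATA. The EFNA1 window, on the plus strand at chr1:155127626-155127875, holds 5 GC boxes and 1 GC-rich SMAD core, which share 2 bases. The EPHA1 window, on the minus strand at chr7:143408857-143409106, holds 5 GC boxes and 1 GC-rich SMAD core. The windows of EPHA3 (plus strand, chr3:89107371-89107620) and UNC5C (minus strand, chr4:95548974-95549223) hold none of these 4 letter strings. None of the 5 windows holds CTTTGA, which says only that these letters are not in this window. Over all 35116 windows of the table, 42.6% hold the GC box, 16.4% the SMAD core, 11.2% the TCF/LEF core and 10.7% the TATA box. Windows were present for 56 of the 66 genes, 87 in all, and of these 70.1% hold the GC box, 23.0% the SMAD core, 10.3% the TCF/LEF core and 3.45% the TATA box. The median number of CpG dinucleotides was 17 in the windows of guidance genes and 11 in all windows. The 35116 windows were not limited to the genes tested, and a gene can have several. The shares therefore describe unlike sets, and their difference was not tested. A match is a letter string and not a shown binding site.

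Among ephrins, 3 of 8 rose and 1 fell in INM versus hESC, and 1 rose and 3 fell in SMC versus INM. EFNB2, a transmembrane ephrin that marks arterial endothelium (probe set 7972713), read 7.36 and 7.48 in hESC, 9.52 and 9.75 in INM, then 7.70 and 7.66 in SMC. Both INM arrays lay above all other arrays. EFNB2 rose 4.64-fold in INM versus hESC, by 2.21 (SE 0.13, adjusted p = 0.000119), and fell in SMC versus INM, at -1.95 (SE 0.13, adjusted p = 0.000245). EFNA1, a lipid-anchored ephrin and a main ligand of EPHA2 (probe set 7905929), read 6.01 and 5.74 in hESC, 7.71 and 7.99 in INM, then 6.19 and 6.14 in SMC. It followed the same course, with 1.97 (SE 0.15, adjusted p = 0.000295) in INM versus hESC and -1.68 (SE 0.15, adjusted p = 0.000852) in SMC versus INM. In SMC versus hESC neither was called, with EFNB2 at 0.26 (SE 0.13, adjusted p = 0.155) and EFNA1 at 0.29 (SE 0.15, adjusted p = 0.18).

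EFNA5, a lipid-anchored ephrin that binds EPHA receptors, fell in all 3 comparisons. It read 9.04 and 9.29 in hESC, 8.62 and 8.70 in INM, then 8.0 and 7.83 in SMC, so the 3 groups did not overlap. Its change was -0.50 (SE 0.13, adjusted p = 0.0299) in INM versus hESC and -1.25 (SE 0.13, adjusted p = 0.000711) in SMC versus hESC. With each array centred on its median, the first of these was -0.31 and was not called (adjusted p = 0.131). EFNB1, the ephrin gene affected in craniofrontonasal syndrome, read 7.25 and 7.0 in hESC, 7.67 and 8.77 in INM, then 8.42 and 8.47 in SMC. Its rise in INM versus hESC was 1.10 (SE 0.33, adjusted p = 0.0436), and it was 1.65 without INM replicate 1 and 0.54 without INM replicate 2. EFNA3, another lipid-anchored ephrin, read 7.89 and 7.68 in hESC, 7.39 and 7.45 in INM, then 7.86 and 7.91 in SMC. It rose in SMC versus INM by 0.46 (SE 0.12, adjusted p = 0.0406), a call lost with each array centred on its median (adjusted p = 0.0582). EFNA2, EFNA4 and EFNB3 were called in none of the 3 comparisons.

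Among Eph receptors, 4 of 13 rose and 1 fell in INM versus hESC, 2 rose and 4 fell in SMC versus INM, and 4 rose and 2 fell in SMC versus hESC. EPHA1, the founding member of the family (probe set 8143575), was the Eph receptor that fell in INM versus hESC. It read 10.06 and 10.06 in hESC, 7.53 and 7.96 in INM, then 6.44 and 6.5 in SMC. All hESC arrays lay above all INM arrays, and these above all SMC arrays. The change was -2.31 (SE 0.16, adjusted p = 0.000206) in INM versus hESC, -1.27 (SE 0.16, adjusted p = 0.00291) in SMC versus INM and -3.59 (SE 0.16, adjusted p = 3.03e-05) in SMC versus hESC, where its signal was 12-fold lower.

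EPHA3, a receptor of ephrin-A5 (probe set 8081081), was high on the SMC arrays alone. It read 5.08 and 5.01 in hESC, 5.22 and 4.90 in INM, then 7.76 and 7.46 in SMC. The hESC and INM arrays overlapped near the background limit, and both SMC arrays lay above them, at 2.55 in SMC versus INM (SE 0.16, adjusted p = 0.000222) and 2.57 in SMC versus hESC (SE 0.16, adjusted p = 8.79e-05). EPHA5, another receptor of A ephrins, read 4.77 and 4.84 in hESC, 4.58 and 4.82 in INM, then 6.06 and 5.87 in SMC. Its rise was 1.27 in SMC versus INM (SE 0.14, adjusted p = 0.00166) and 1.16 in SMC versus hESC (SE 0.14, adjusted p = 0.00101). Both may be lower bounds, since the INM and hESC means lay under the background limit. EPHA3 and EPHA5 were the 2 guidance genes whose rise in SMC versus INM was called whichever 1 of the 6 arrays was left out.

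The receptors that rose in INM were EPHA4, EPHB1, EPHB3 and EPHB6. EPHA4, which binds ephrins of both classes, read 7.92 and 7.73 in hESC, 9.29 and 9.06 in INM, then 8.17 and 8.05 in SMC. It rose by 1.35 (SE 0.14, adjusted p = 0.000818) in INM versus hESC and fell, at -1.07 (SE 0.14, adjusted p = 0.00315), in SMC versus INM. EPHB6, a receptor without kinase activity, read 7.51 and 7.35 in hESC, 8.94 and 8.41 in INM, then 6.73 and 6.53 in SMC. It rose by 1.24 (SE 0.19, adjusted p = 0.00411) in INM versus hESC, and the fall in SMC versus INM, at -2.04 (SE 0.19, adjusted p = 0.00104), took both SMC arrays below both hESC arrays. EPHB3, a receptor of B ephrins, read 6.59 and 6.22 in hESC, 8.98 and 8.43 in INM, then 7.60 and 7.73 in SMC. EPHB3 rose by 2.31 (SE 0.21, adjusted p = 0.000606) in INM versus hESC and was still higher in SMC versus hESC, by 1.26 (SE 0.21, adjusted p = 0.00442). EPHB1, likewise a receptor of B ephrins, read 7.23 and 7.49 in hESC, 7.87 and 8.24 in INM, then 8.47 and 8.47 in SMC. EPHB4, the venous receptor of ephrin-B2, was called in none of the 3 comparisons and ranged from 9.16 to 9.71 over the 6 arrays. EPHA2, EPHA6, EPHA7, EPHA8 and EPHA10 were also without a call.

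**Figure D2:**
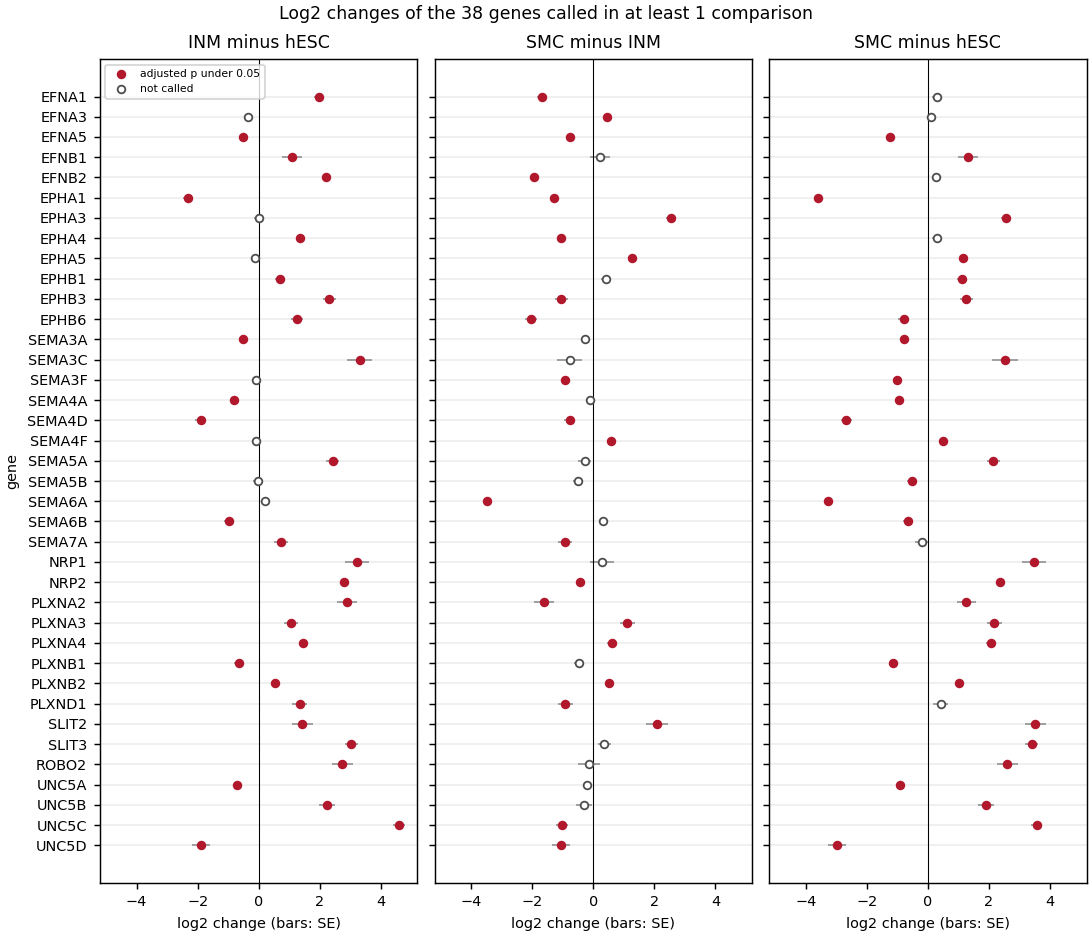
Points are log2 changes of the 38 genes called in at least 1 comparison, in 3 panels for INM minus hESC, SMC minus INM and SMC minus hESC, with bars of 1 SE; filled points passed an adjusted p of 0.05. UNC5C lies farthest right in the first panel at 4.60, and SEMA6A lies farthest left in the second at -3.48.

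The neuropilins, co-receptors of class 3 semaphorins and of vascular endothelial growth factor, both rose in INM and were called higher in SMC versus hESC too. NRP2 (probe set 8047738) read 7.21 and 7.27 in hESC, 10.09 and 9.99 in INM, then 9.56 and 9.62 in SMC. It rose 6.95-fold in INM versus hESC, by 2.80 (SE 0.11, adjusted p = 3.8e-05), and by 2.35 in SMC versus hESC (SE 0.11, adjusted p = 3.64e-05). A small fall in SMC versus INM, at -0.45 (SE 0.11, adjusted p = 0.0327), was not seen on its other probe set, at -0.10 (adjusted p = 0.731). NRP1 (probe set 7932985) read 6.16 and 6.54 in hESC, 8.90 and 10.22 in INM, then 9.86 and 9.82 in SMC. The INM arrays differed by 1.31, and both lay above both hESC arrays, with a rise of 3.21 (SE 0.39, adjusted p = 0.00171).

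Of 7 class 3 semaphorins, 1 rose (SEMA3C) and 1 fell (SEMA3A) in INM versus hESC, and 1 rose (SEMA3C) and 2 fell (SEMA3A and SEMA3F) in SMC versus hESC. SEMA3C, which in mice is needed to divide the cardiac outflow tract (probe set 8140534), read 5.79 and 5.65 in hESC, 9.73 and 8.31 in INM, then 8.38 and 8.12 in SMC. It rose 9.86-fold in INM versus hESC, by 3.3 (SE 0.41, adjusted p = 0.00185), and by 2.52 in SMC versus hESC (SE 0.41, adjusted p = 0.00393). SEMA3A, the prototype repellent that acts through NRP1, read 9.97 and 10.05 in hESC, 9.50 and 9.52 in INM, then 9.28 and 9.21 in SMC. The 3 groups did not overlap, and the change was -0.50 (SE 0.11, adjusted p = 0.014) in INM versus hESC and -0.77 (SE 0.11, adjusted p = 0.00218) in SMC versus hESC. With each array centred on its median, the change in INM versus hESC was -0.32 and was not called (adjusted p = 0.0686). SEMA3F, a ligand of NRP2, read 7.63 and 7.51 in hESC, 7.67 and 7.30 in INM, then 6.54 and 6.60 in SMC, and fell in SMC versus INM at -0.91 (SE 0.15, adjusted p = 0.00808). SEMA3B, SEMA3D, SEMA3E and SEMA3G were not called. In SMC versus INM 0 of the 7 were called higher by limma, and 0 had an unadjusted p under 0.05 in that direction.

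Of 12 membrane semaphorins, 2 rose (SEMA5A and SEMA7A) and 3 fell (SEMA4A, SEMA4D and SEMA6B) in INM versus hESC, and 2 rose (SEMA4F and SEMA5A) and 5 fell in SMC versus hESC. SEMA6A, a transmembrane semaphorin that in mice binds PLXNA2 and PLXNA4 (probe set 8113666), was called only in the comparisons with SMC. It read 11.62 and 11.63 in hESC, 11.97 and 11.72 in INM, then 8.29 and 8.43 in SMC. Its fall in SMC versus INM was 11.2-fold, at -3.48 (SE 0.13, adjusted p = 6.23e-05), the largest fall of the 66 genes in that comparison. In INM versus hESC it was at 0.22 (SE 0.13, adjusted p = 0.245). Centring each array on its median put that change at 0.41 and called it higher (adjusted p = 0.0459).

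SEMA4D, also known as CD100 and the ligand of PLXNB1 (probe set 8162236), fell in all 3 comparisons. It read 8.83 and 8.95 in hESC, 6.72 and 7.24 in INM, then 6.23 and 6.20 in SMC, with -1.91 (SE 0.18, adjusted p = 0.000641) in INM versus hESC and -2.67 (SE 0.18, adjusted p = 0.000111) in SMC versus hESC. A second SEMA4D probe set was at -0.46 in INM versus hESC and -0.51 in SMC versus hESC. In SMC versus INM that second probe set was at -0.05 and was not called (adjusted p = 0.821). With the mean of its probe sets, SEMA4D was at -0.41 in SMC versus INM and was not called (adjusted p = 0.058). On the first probe set the fall in SMC versus INM, at -0.77, was -0.51 without INM replicate 2. SEMA5A, which carries thrombospondin repeats (probe set 8110932), read 8.17 and 8.26 in hESC, 10.97 and 10.31 in INM, then 10.33 and 10.40 in SMC. It rose 5.36-fold in INM versus hESC, by 2.42 (SE 0.21, adjusted p = 0.000512), and was at -0.27 (SE 0.21, adjusted p = 0.42) in SMC versus INM. SEMA4A, a semaphorin of immune cells, fell in INM versus hESC at -0.82 (SE 0.14, adjusted p = 0.00557), and SEMA6B fell at -0.98 (SE 0.15, adjusted p = 0.00411). SEMA7A, a lipid-anchored semaphorin that binds PLXNC1 and integrins, read 7.75 and 7.75 in hESC, 8.82 and 8.14 in INM, then 7.44 and 7.69 in SMC. The rise in INM versus hESC, at 0.73 (SE 0.23, adjusted p = 0.0478), was called in 1 of 6 fits with 1 array left out and was 0.39 without INM replicate 1. Its fall in SMC versus INM, at -0.91, was -0.58 without that array. SEMA4F rose in SMC versus hESC by 0.49 (SE 0.12, adjusted p = 0.0181). SEMA5B fell there, at -0.53 (SE 0.17, adjusted p = 0.0467), a call lost with each array centred (adjusted p = 0.123). SEMA4B, SEMA4G, SEMA6C and SEMA6D had no call.

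Plexins, the signalling receptors of semaphorins, were called as follows: 5 of 9 rose and 1 fell (PLXNB1) in INM versus hESC, and 4 rose and 1 fell (PLXNB1) in SMC versus hESC. PLXNA2 (probe set 7923991) read 5.54 and 5.59 in hESC, 9.0 and 7.90 in INM, then 6.76 and 6.91 in SMC. It rose 7.36-fold in INM versus hESC, by 2.88 (SE 0.33, adjusted p = 0.00126), and fell in SMC versus INM at -1.62 (SE 0.33, adjusted p = 0.0166), a fall of -1.06 without INM replicate 1. The rise may be a lower bound, since the hESC mean of 5.57 lay under those arrays' own medians of probe sets without a gene name. PLXNA4 (probe set 8142997) read 7.08 and 6.82 in hESC, 8.55 and 8.28 in INM, then 8.97 and 9.06 in SMC, so each later group lay above the earlier one. Its rise was 1.46 (SE 0.15, adjusted p = 0.000867) in INM versus hESC and 2.07 (SE 0.15, adjusted p = 0.00015) in SMC versus hESC. PLXNA3 read 7.21 and 7.18 in hESC, 8.63 and 7.88 in INM, then 9.31 and 9.44 in SMC, and it rose by 2.18 in SMC versus hESC (SE 0.23, adjusted p = 0.000708). Its rise of 1.06 in INM versus hESC was 0.69 without INM replicate 1, and its rise of 1.12 in SMC versus INM was 0.74 without INM replicate 2.

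PLXND1, a plexin of the developing vasculature and a receptor of SEMA3E, read 8.43 and 8.39 in hESC, 10.16 and 9.34 in INM, then 8.77 and 8.88 in SMC. It rose by 1.34 (SE 0.25, adjusted p = 0.00815) in INM versus hESC and fell in SMC versus INM at -0.92 (SE 0.25, adjusted p = 0.0441), or -0.52 without INM replicate 1. PLXNB1, the receptor of SEMA4D, read 8.58 and 8.66 in hESC, 8.10 and 7.83 in INM, then 7.38 and 7.59 in SMC. It fell at -0.66 (SE 0.14, adjusted p = 0.0139) in INM versus hESC and at -1.14 (SE 0.14, adjusted p = 0.0013) in SMC versus hESC, where its ligand SEMA4D also fell. PLXNB2 read 9.11 and 9.20 in hESC, 9.78 and 9.58 in INM, then 10.11 and 10.25 in SMC, and it rose by 1.03 in SMC versus hESC (SE 0.13, adjusted p = 0.00126). PLXNA1, PLXNB3 and PLXNC1 were not called.

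The SLIT and ROBO genes split within each family. SLIT3 (probe set 8115691) read 6.84 and 6.66 in hESC, 10.10 and 9.46 in INM, then 10.09 and 10.20 in SMC. It rose 8.20-fold in INM versus hESC, by 3.04 (SE 0.21, adjusted p = 0.000212), and was at 0.36 (SE 0.21, adjusted p = 0.286) in SMC versus INM. SLIT2 (probe set 8094301) read 7.51 and 7.65 in hESC, 8.4 and 9.63 in INM, then 11.13 and 11.07 in SMC. The 3 groups did not overlap, and SLIT2 rose 11.5-fold in SMC versus hESC, by 3.52 (SE 0.36, adjusted p = 0.000563). Its rise was 1.43 in INM versus hESC (SE 0.36, adjusted p = 0.0231), or 0.82 without INM replicate 2, and 2.09 in SMC versus INM (SE 0.36, adjusted p = 0.00919). SLIT1 was not called and ranged from 6.06 to 6.35.

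Of the 4 ROBO receptors, only ROBO2 was called. ROBO2 (probe set 8081001) read 5.96 and 6.25 in hESC, 9.43 and 8.26 in INM, then 8.67 and 8.73 in SMC, with a rise of 2.74 (SE 0.35, adjusted p = 0.00195) in INM versus hESC and 2.60 (SE 0.35, adjusted p = 0.00175) in SMC versus hESC. ROBO1, a broadly expressed SLIT receptor, ranged from 10.12 to 10.61 over the 6 arrays, and its change in SMC versus hESC was -0.15 (SE 0.16, adjusted p = 0.482). ROBO3, known from commissural axons, and ROBO4, known from endothelium, had changes between -0.11 and 0.08. In SMC versus INM limma called 0 of the 4, and 0 had an unadjusted p under 0.05.

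**Figure D3:**
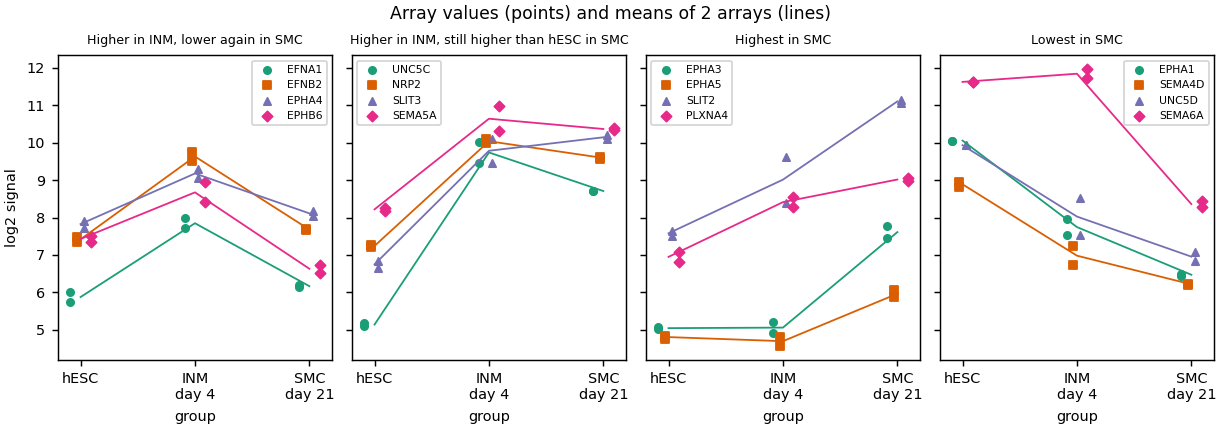
Points are single arrays and lines join the means of 2 arrays, on a log2 axis, for 16 genes in 4 panels by time course over hESC, INM (day 4) and SMC (day 21). EFNB2 peaks at 9.63 in INM, UNC5C stays at 8.71 in SMC, SLIT2 reaches 11.10 in SMC and SEMA6A drops to 8.36 in SMC; heights of different genes are not comparable.

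All 4 UNC5 receptors were called in INM versus hESC, and none of the 4 netrins was. UNC5C (probe set 8101788) read 5.18 and 5.10 in hESC, 9.46 and 10.02 in INM, then 8.71 and 8.70 in SMC. Its rise of 4.60 in INM versus hESC (SE 0.19, adjusted p = 4.22e-05), a 24.2-fold ratio of signals, was the largest change of the 66 genes in any comparison. Its hESC mean of 5.14 lay close to the background limit and under the hESC arrays' own medians of probe sets without a gene name. The rise may therefore be a lower bound. UNC5C fell at -1.03 (SE 0.19, adjusted p = 0.0116) in SMC versus INM and was still higher in SMC versus hESC, by 3.57 (SE 0.19, adjusted p = 4.92e-05). UNC5B, the receptor known from vessels (probe set 7928189), read 7.92 and 8.04 in hESC, 10.61 and 9.80 in INM, then 9.79 and 9.99 in SMC. It rose by 2.23 (SE 0.26, adjusted p = 0.00135) in INM versus hESC and by 1.91 (SE 0.26, adjusted p = 0.00173) in SMC versus hESC.

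The other UNC5 receptors fell. UNC5D, which binds FLRT proteins as well as netrin (probe set 8145799), read 9.94 and 9.93 in hESC, 8.51 and 7.54 in INM, then 7.08 and 6.83 in SMC. Its change was -1.91 (SE 0.30, adjusted p = 0.00405) in INM versus hESC and -2.98 (SE 0.30, adjusted p = 0.000515) in SMC versus hESC, and the change of -1.07 in SMC versus INM was -0.59 without INM replicate 1. UNC5A read 7.31 and 7.36 in hESC, 6.68 and 6.57 in INM, then 6.52 and 6.35 in SMC, with -0.71 (SE 0.12, adjusted p = 0.00548) in INM versus hESC. NTN1, the founding vertebrate netrin, read 7.67 and 7.75 in hESC, 7.54 and 7.66 in INM, then 7.58 and 7.42 in SMC. Of the 4 netrins limma called 0 in each comparison, and 2, 0 and 1 had an unadjusted p under 0.05 in INM versus hESC, SMC versus INM and SMC versus hESC, all of them lower. The netrin receptor DCC read 6.04 and 6.0 in hESC, 5.84 and 7.34 in INM, then 5.68 and 5.73 in SMC, and it was not called.

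The 11 genes whose INM arrays differed by more than 1 were chosen after their values were seen. INM replicate 2 was the higher array for SEMA6D, EPHA7, SEMA3E, NRP1, SLIT2, EFNB1 and SEMA3D, and INM replicate 1 for SEMA3C, EPHA2, ROBO2 and PLXNA2. SEMA6D, which binds PLXNA1 in chick, read 6.49 and 6.64 in hESC, 7.48 and 10.36 in INM, then 8.74 and 8.95 in SMC. Both INM and both SMC arrays lay above the hESC arrays, but no change was called with all 6 arrays, at 2.35 (SE 0.81, adjusted p = 0.0647) in INM versus hESC and 2.28 (SE 0.81, adjusted p = 0.0671) in SMC versus hESC. The change in INM versus hESC was called at 3.79 without INM replicate 1 and at 0.91 without INM replicate 2. It was also called with all 6 arrays when the replicate number was a block (adjusted p = 0.04) or arrays were weighted by quality (adjusted p = 0.0264). With only the hESC and SMC arrays in the fit, the SMC rise of SEMA6D had an adjusted p of 3.4e-06. EPHA7, a receptor of A ephrins, read 7.75 and 7.90 in hESC, 7.02 and 9.59 in INM, then 9.01 and 8.78 in SMC. It was called higher in INM versus hESC without INM replicate 1, at 1.76 (adjusted p = 9.16e-05), and lower without INM replicate 2, at -0.80 (adjusted p = 0.00385). EPHA7 was also higher in SMC versus hESC with only those 4 arrays, by 1.07 (adjusted p = 0.000214). That fit further called EFNA4, EPHA2, PLXNA1, PLXND1 and SEMA3B higher in SMC versus hESC. It called EPHA6 (under the background limit), EPHA10, EPHB4, NTN4 and PLXNC1 lower. SEMA3E stood at 4.41 and 5.81 in INM, on either side of the background limit.

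Markers of other states differed between the INM arrays too, and their part in these gaps was not tested. Replicate 1 minus replicate 2 had a mean of -0.48 over the 10 mesoderm markers, -0.34 over the 9 pluripotency markers and -0.25 over the 12 endothelial markers. The mean was 0.31 over the 13 neuron markers, 0.21 over the 10 smooth muscle markers, 0.215 over the 9 neural crest markers and 0.202 over the 10 fibroblast markers. It was -0.19 over neuroectoderm, 0.07 over glia and 0.11 over cardiomyocyte markers. Among fibroblast markers COL1A2 and FAP were higher by over 1 in replicate 1, and DCN and PDGFRA in replicate 2. Among neural crest markers only TFAP2A had a gap over 1, and the median was 0.06. Of the smooth muscle markers 5 were higher in replicate 1 and 5 in replicate 2, with a median of 0.02. Their gaps over 1 were those of ACTA2 and TAGLN. Of the endothelial markers 8 were higher in replicate 1 and 4 in replicate 2, and the gaps over 1 were those of KDR, at 9.09 and 11.47, and TEK, at 7.97 and 10.52. The neuron markers were split too, with STMN2, GAP43 and DCX over 1 higher in replicate 1, and NEFL and NEFM over 1 higher in replicate 2. STMN2, a neuronal tubulin regulator, read 11.81 and 8.95, while the neurofilament gene NEFL read 7.23 and 8.41.

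**Figure D4:**
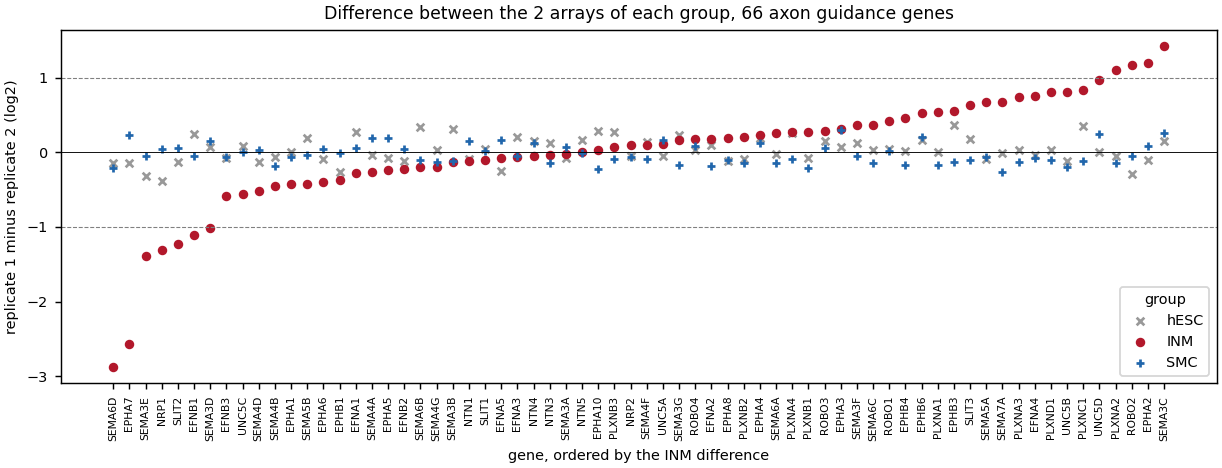
For each of the 66 genes the points give replicate 1 minus replicate 2 in log2 units within hESC, INM and SMC, ordered by the INM value, with dashed lines at -1 and 1. The INM values run from -2.88 for SEMA6D to 1.42 for SEMA3C, while all hESC and SMC values lie between the dashed lines.

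Calls were refitted with each array left out in turn. In INM versus hESC 15 of 22 rises and 6 of 9 falls were called in all 6 fits. The calls of EFNB1, EPHB1, PLXNA3, PLXNB2, PLXND1, SEMA7A, SLIT2, EFNA5, PLXNB1 and SEMA3A were lost in at least 1. Without hESC replicate 1 the adjusted p of the 7 lost rises lay between 0.0593 and 0.183 and that of the 3 lost falls between 0.057 and 0.0694, and without hESC replicate 2 the 6 lost rises lay between 0.0584 and 0.19 and the 3 lost falls between 0.083 and 0.153. Without either SMC array 3 rises were lost, at 0.0557 to 0.0888, with the fall of EFNA5 at 0.0614. Without INM replicate 1 the rise of SEMA7A was 0.39 with an adjusted p of 0.0654.

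In SMC versus INM 2 of 8 rises and 6 of 16 falls were called in all 6 such fits. Without SMC replicate 1 the 6 lost rises had an adjusted p between 0.0771 and 0.168 and the 10 lost falls between 0.0606 and 0.207, and without SMC replicate 2 these ranges were 0.0764 to 0.215 and 0.0694 to 0.235. Without either hESC array 4 rises (0.0543 to 0.0762) and 5 falls (0.0665 to 0.101) were lost, and without INM replicate 2 the rises of PLXNA4 and PLXNB2 had an adjusted p of 0.0531 and 0.0575. The falls called in all 6 were those of EFNA1, EFNB2, EPHA1, EPHA4, EPHB6 and SEMA6A. In SMC versus hESC 16 of 19 rises and 10 of 13 falls were called in all 6, and EFNB1, PLXNA2, SEMA4F, EPHB6, SEMA5B and SEMA6B lost a call without an hESC or SMC array, with an adjusted p between 0.0538 and 0.222.

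Other guidance ligands, adhesion molecules and receptors came from a list of 32 genes, all measured. In INM versus hESC 10 were called higher (31.2%, where 18.9% of all genes were) and 9 lower (28.1%, where 14.8% were). In SMC versus INM 8 were called higher (25%, where 9.94% of all genes were) and 4 lower (12.5%, where 11.1% were). In SMC versus hESC 10 were called higher (31.2%, where 19.7% of all genes were) and 9 lower (28.1%, where 17.6% were). FLRT2, a membrane protein that binds UNC5D, read 5.55 and 5.65 in hESC, 7.97 and 9.26 in INM, then 10.01 and 10.07 in SMC, and it rose by 4.44 in SMC versus hESC (SE 0.37, adjusted p = 0.000269). FLRT3, which binds UNC5B, read 6.52 and 6.5 in hESC, 8.86 and 10.60 in INM, then 8.82 and 8.67 in SMC, with a rise of 3.23 (SE 0.49, adjusted p = 0.00393) in INM versus hESC. The cell adhesion gene CNTN4 rose by 3.94 in SMC versus hESC (SE 0.21, adjusted p = 5.28e-05). The hESC means of FLRT2 (5.60) and CNTN4 (5.38) lay under the hESC arrays' own medians of probe sets without a gene name. BOC and CDON, surface co-receptors of hedgehog ligands, peaked in INM: BOC rose by 3.49 (SE 0.18, adjusted p = 8.45e-05) in INM versus hESC and fell at -1.47 (SE 0.18, adjusted p = 0.0027) in SMC versus INM. CDON fell at -2.87 (SE 0.12, adjusted p = 6.76e-05) in SMC versus INM, as did DRAXIN, a secreted repellent, at -0.71, and LRIG3 at -1.07. Of these falls, that of DRAXIN was lost without either SMC array (adjusted p = 0.0712 and 0.149), and that of LRIG3 without any hESC or SMC array (0.0651 to 0.158). The LRIG3 fall was -0.68 without INM replicate 1.

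Intracellular mediators were listed as 49 genes, of which 43 were measured. In INM versus hESC 18 rose (41.9%, where 18.9% of all genes did) and 3 fell, DPYSL5, RND1 and VAV3 (6.98%, where 14.8% did). In SMC versus INM 1 rose, MICAL2 (2.33%, where 9.94% of all genes did), and 6 fell (14%, where 11.1% did). In SMC versus hESC 12 rose (27.9%, where 19.7% of all genes did). There 5 fell, namely CHN1, DPYSL3, DPYSL5, RND1 and VAV3 (11.6%, where 17.6% of all genes did). The median change was 0.43 in INM versus hESC and 0.22 in SMC versus hESC, beside -0.03 and -0.05 over all genes. MICAL2, an actin-oxidising enzyme of the family that acts below plexins, read 5.73 and 5.50 in hESC, 8.60 and 7.52 in INM, then 9.49 and 9.60 in SMC, and it rose by 3.93 in SMC versus hESC (SE 0.32, adjusted p = 0.000243). CFL2, a muscle form of the actin-severing protein cofilin, rose by 1.39 in INM versus hESC (SE 0.17, adjusted p = 0.00157). DPYSL3, a collapsin response mediator, fell at -1.71 in SMC versus INM (SE 0.14, adjusted p = 0.000651). VAV3 fell at -1.48 in INM versus hESC (SE 0.14, adjusted p = 0.000634). That may be a lower bound of the fall, since the INM mean of VAV3, 4.43, lay under the background limit. The MICAL2 rise in SMC versus INM, at 1.48, was lost without any hESC or SMC array (adjusted p between 0.0572 and 0.138) and was 0.95 without INM replicate 2. The fall of DPYSL5 in INM versus hESC, at -0.67, was -0.37 without INM replicate 1. The calls of DPYSL5 and RND1 in INM versus hESC were lost without either hESC array. They were also lost with each array centred on its median (adjusted p = 0.125 and 0.0537). That of DPYSL5 was kept in only 1 of 6 fits with 1 array left out. It was also lost with only the hESC and INM arrays in the fit (adjusted p = 0.0833). The call of CHN1 in SMC versus hESC was lost without any hESC or SMC array.

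Neuronal and vascular markers were set beside these genes, since guidance genes are used in both tissues. Over all genes 18.9% were called higher and 14.8% lower in INM versus hESC, and 19.7% and 17.6% in SMC versus hESC. Of 13 neuron markers, 3 were called higher and 4 lower in INM versus hESC and again 3 higher and 4 lower in SMC versus hESC, and their mean level was 7.58 and 7.27 in INM, then 7.38 and 7.49 in SMC, against 7.32 and 7.26 in hESC. MAP2 rose by 2.35 in INM versus hESC, and SYP, a synaptic vesicle protein, fell at -0.78. Of 12 endothelial markers, 4 rose in SMC versus hESC and 0 fell by limma (0 at an unadjusted p under 0.05), with ERG at 2.04, PECAM1 at 1.43, EMCN at 1.19 and CDH5 at 0.95, the last of which was called in 2 of 6 fits with 1 array left out. The hESC means of ERG and EMCN lay under the background limit, so their differences may be lower bounds. EMCN read only 5.46 and 5.55 in SMC, where the arrays' own medians of probe sets without a gene name were 5.34 and 5.31. The hESC mean of PECAM1, at 5.30, lay under the hESC arrays' own medians of probe sets without a gene name. The mean level of the endothelial list was 7.21 and 7.16 in SMC against 6.62 and 6.57 in hESC, and VWF, a defining endothelial gene, read 5.30 and 5.46 in SMC. In SMC versus hESC all 10 fibroblast markers rose, as did all 10 mesoderm markers and 8 of 10 smooth muscle markers, while all 9 pluripotency markers fell. Of 9 neural crest markers, 2 rose and 2 fell. The part of neuronal, endothelial or fibroblast-like cells in the changes of NRP1, UNC5B, SLIT2 and the other genes was not tested.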

How the data were processed

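Total RNA of 6 samples was measured on Affymetrix arrays, labelled with the WT Terminal Labeling Kit per the labels' protocols. The deposited table holds log2 values for 33297 probe sets; RMA and limma are named in the submitters' processing notes, and the log2 scale rests on the range of the values, 1.36 to 14.1. The sources used here give neither the RMA settings nor any centring or genome build of the array. Groups and replicate numbers came from the sample titles.

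Names came from the platform annotation, in which 19460 probe sets carried 1 gene symbol, 1754 several and 12083 none, and 19429 symbols were updated by Entrez identifier to GRCh38.p14 names, while 31 were kept. Each gene took its brightest probe set by the mean of all 6 arrays. The 18417 genes were fitted with 1 mean per group (lmFit, then eBayes, limma version 3.58.1, R 4.3.3; 3 residual and 3.56 prior degrees of freedom), with no filter and no further normalization. Tests were two-sided, and the fit was tested on simulated data. With 2 arrays against 2, the smallest exact permutation p is 0.333. The number of arrays limits the precision.

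The gene families, the companion and marker lists and the tests were chosen with earlier results of these data known. All 66 genes may be named. Full statistics follow a rule of up to 6 called genes per family with the largest change, and up to 4 of each companion list with those behind a count of 5 or fewer. SEMA6D, EPHA7, SEMA4F, SEMA5B, DCC, the single marker genes and the genes with an INM gap were added after their values were seen. Of the 66 genes, 63 passed the low-signal filter used as an alternative. Upstream windows came from RefSeq, cut to 250 bases before the start.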

Additional observations from a re-analysis of the deposited data

How the results depend on the processing

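Counts of called genes among the 66 were recomputed under 14 alternatives. The count of genes higher in SMC than in INM was 8 with all arrays, 4 with only the 4 arrays of those groups, and between 2 and 11 with 1 array left out. The count lower in SMC than in INM was 16, and lay between 6 and 27 with 1 array left out. The other 4 counts stayed within 1.5 times their value under every alternative run. With 1 array left out they were 15 to 27 and 6 to 12 (higher and lower in INM versus hESC), and 16 to 26 and 10 to 18 (higher and lower in SMC versus hESC). Fewer arrays leave fewer degrees of freedom, and the fits without an INM array leave out that pair's spread. The share of all genes called changed between these fits too, so the moves are not particular to guidance genes. With only the 4 arrays of SMC and INM, 6.8% of all genes were called higher in SMC, beside 9.94% with all arrays.

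In 4 cases the direction turned and the turned or original change was called, all on leaving out 1 INM array: EPHA7 ranged from -0.80 to 1.76 in INM versus hESC and from -0.69 to 1.88 in SMC versus INM, SEMA6D from -1.51 to 1.37 and EPHA2 from -0.78 to 0.41 in SMC versus INM. None of these was called with all 6 arrays. Signs also changed in 49 gene comparisons where the change was called neither with all 6 arrays nor under the alternative, from changes of at most 0.53. Centring each array moved the median change of all genes to 0.16 in INM versus hESC, beside -0.03 as deposited, and the higher count there to 28, beside 22. Centring ended the calls of EFNA5 and SEMA3A in INM versus hESC, EFNA3 in SMC versus INM and SEMA5B in SMC versus hESC. It newly called EFNA2, EPHA2, PLXNA1, SEMA3B, SEMA3D and SEMA6A higher in INM versus hESC. Centring also called EPHA4 and SEMA3B higher in SMC versus hESC, and PLXNB1 lower in SMC versus INM. Quantile normalization ended the calls of PLXNB2 and SEMA7A in INM versus hESC and SEMA5B in SMC versus hESC. In SMC versus INM it ended those of EFNA3, NRP2 and PLXND1. The adjusted p of these lost calls lay between 0.0502 and 0.0634. It newly called SEMA3B higher in INM versus hESC (adjusted p = 0.00966) and in SMC versus hESC (0.013). EFNA1 was newly called higher in SMC versus hESC (0.0405).

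With the replicate number as a replicate block the 6 counts were 22 and 9, 6 and 15, and 20 and 12 (higher and lower in INM versus hESC, SMC versus INM, and SMC versus hESC). The deviations of same-numbered arrays correlated at 0.07, -0.12 and -0.07 across genes. The labels do not say whether same-numbered arrays were paired, and these values cannot settle it.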
